A study of Mus musculus with 10 samples.

Results

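The 10 genes described here belong to the cytosolic heat shock response: Hspa1a, Hspa1b, Hspa8, Dnaja1, Dnajb1, Hsph1, Bag3, Hspb1, Hspb8 and Hsp90aa1. They were taken by gene symbol from the 15075 genes of the expression table, all 10 were found, and all 10 passed the filter on low values. In AdCKO interscapular brown adipose tissue (iBAT) 9 of the 10 were called higher than in Control, against 25.6% of the 11244 genes tested, and 0 were called lower, against 28.0%. At an unadjusted p under 0.05, limma had 10 of the 10 higher and 0 lower. With the threshold on the adjusted p at 0.05, 10 of the 10 were called higher, and 3572 of the 11244 genes tested. The log2 fold changes ran from 0.33 for Dnajb1 to 1.86 for Hspa1a, with a median of 0.94 for the 10 genes and of -0.01 for all genes tested.

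The study compared RNA from iBAT of 5 AdCKO mice and 5 Control mice, C57BL/6 animals aged 20 weeks and kept at room temperature, each sequenced as 1 library. In AdCKO mice the adipocyte promoter of Adipoq drives Cre, and loxP sites stand on either side of exon 4 of Crls1. Control mice carry the floxed Crls1 alleles without Cre, although the sample labels call them wild-type. Crls1 encodes cardiolipin synthase, which makes the signature phospholipid of the inner mitochondrial membrane, so the comparison asks what loss of its synthesis in adipocytes does to gene expression in brown fat. Values are normalized reads per kb of counted exon, which allows levels to be compared between genes as well as between libraries. Calls were made where the Benjamini-Hochberg adjusted p from limma on log2(value + 1), over all 11244 genes, was under 0.01. Every log2 fold change below, also where means precede it, is the difference of mean log2(value + 1). This scale understates the change of genes with low values.

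Cells meet damaged or unfolded proteins in the cytosol with chaperones. HSP70 proteins bind exposed stretches of a polypeptide in cycles of ATP hydrolysis, J-domain proteins deliver the substrate and start hydrolysis, nucleotide exchange factors release it, small heat shock proteins hold unfolding proteins without ATP, and HSP90 acts late on clients such as kinases and receptors. When unfolded protein accumulates, the transcription factor HSF1 is freed from chaperones, forms trimers and binds heat shock elements, inverted repeats of a GAA unit, in the promoters of many of these genes. Brown fat makes heat in its mitochondria, and most mitochondrial proteins are built in the cytosol and kept unfolded by HSP70 and HSP90 until they are imported.

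The promoters are shown because the inverted GAA repeat is a sequence feature that most of these genes share. In the window from 250 bases before to 50 bases after the start site, read from the mm9 genome at the start sites of the deposited table, GAANNTTC was found in 9 of the 10 genes, and in 5.62% of the promoters of the 11244 genes tested. GAANNTTC reads the same on both strands. The share among the 2879 genes called higher was 5.77%. The 4 upstream stretches below carry it before the start site, and each ends at the base before that site. Capitals mark GAANNTTC.
Hspa1a, mm9 chr17:35109102-35109251, minus strand: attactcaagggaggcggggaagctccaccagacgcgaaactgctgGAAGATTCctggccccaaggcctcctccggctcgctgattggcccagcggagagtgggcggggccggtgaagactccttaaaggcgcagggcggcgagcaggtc
Hspa1b, mm9 chr17:35096184-35096333, minus strand: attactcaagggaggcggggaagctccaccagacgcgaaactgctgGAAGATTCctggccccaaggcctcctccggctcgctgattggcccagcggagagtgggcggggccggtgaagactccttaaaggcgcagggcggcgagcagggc
Dnaja1, mm9 chr4:40669351-40669500, plus strand: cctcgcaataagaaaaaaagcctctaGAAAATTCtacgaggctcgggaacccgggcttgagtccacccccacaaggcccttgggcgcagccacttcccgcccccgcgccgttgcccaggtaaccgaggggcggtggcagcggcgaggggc
Hspb1, mm9 chr5:136363639-136363788, plus strand: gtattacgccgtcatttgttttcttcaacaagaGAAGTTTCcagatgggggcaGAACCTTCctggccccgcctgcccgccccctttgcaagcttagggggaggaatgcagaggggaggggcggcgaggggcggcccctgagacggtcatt

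Hspa1a and Hspa1b have the same element, GAAGATTC, starting 104 bases before the start site, and 296 of the 300 bases of their promoter windows are identical (98.7%). The run of 3 units, GAANNTTCNNGAA searched on both strands, which contains GAANNTTC, was found in 3 of the 10 genes and in 0.418% of all promoters tested. Hsp90aa1 has TTCCGGAAGGTTC, which starts 4 bases before the start site and runs across it, and Hsph1 has TTCTGGAAAGTTC, whose first base is base 16 of the transcript. In Bag3 and Hspb8 the shorter element lies after the start site, at bases 43 and 3, and Dnajb1 has no match to either in this window. The other arrangement of a pair of units, TTCNNGAA, which also occurs inside the run of 3, was found in 3 of the 10 genes and in 6.80% of all promoters. The CCAAT box, on either strand, was found in 5 of the 10 and in 37.4% of all promoters. The matches describe the sequence, and binding of a factor was not measured.

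In AdCKO iBAT the 3 HSP70 genes rose, and the stress-inducible pair had the largest fold changes of the 10 genes. Hspa1a (NM_010479, mm9 chr17:35106304-35109101, minus strand), which encodes the HSP70 that is made in large amounts after heat shock, had 10.6, 10.8, 7.94, 9.39 and 12.6 normalized reads per kb in the 5 Control libraries, in the order of their replicate numbers. In the 5 AdCKO libraries it had 38.4, 60.6, 30.8, 51.2 and 26.4. The lowest AdCKO value was above the highest Control value, and replicates 2 and 4 stood highest within AdCKO. The mean rose from 10.3 ± 1.73 to 41.5 ± 14.2 (SD, n = 5), and the ratio of these means was 4.04. The log2 fold change, on log2(value + 1), was 1.86 (SE 0.21, limma adjusted p = 7.04e-06). This change ranked 409 from the highest among the 11244 genes tested.

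Hspa1b (NM_010478, mm9 chr17:35093374-35096183, minus strand), which lies beside Hspa1a and encodes nearly the same protein, had 16.1, 14.2, 13.7, 12.0 and 19.1 normalized reads per kb in Control and 46.8, 83.8, 41.9, 70.2 and 36.7 in AdCKO. The AdCKO libraries kept the order they had for Hspa1a. The Control mean of 15.0 ± 2.72 rose to 55.9 ± 20.2 (SD, n = 5), which is 1.77 on the log2 scale (SE 0.21, limma adjusted p = 1.27e-05). Of the 50-base windows in the exons of Hspa1a, 62.4% also occur in Hspa1b, and 0.0% occur in Hspa8, so reads from one member of the pair can be counted for the other and their separate values are uncertain. Summed as 1 gene, the pair had a log2 fold change of 1.81 (limma adjusted p = 9.02e-06). Hspa1a exons also overlap Gm20481 on the opposite strand, and whether the counting used strand was not given in the sources used here.

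Hspa8 (NM_031165, mm9 chr9:40609356-40613282, plus strand) encodes HSC70, the HSP70 present in unstressed cells, which also carries precursors to mitochondria and strips clathrin coats. It had 1024, 1407, 778, 960 and 1159 normalized reads per kb in Control and 2125, 2621, 1941, 1775 and 1745 in AdCKO. The groups were apart, with replicate 2 highest in both. From a mean of 1066 ± 235 Hspa8 rose to 2041 ± 358 (SD, n = 5), or by 0.95 as log2 fold change (SE 0.16, adjusted p = 0.000174 by limma). Its means differed by 976 normalized reads per kb, against 31.2 for Hspa1a and 40.8 for Hspa1b. Annotated exons of Hspa8, taken over all its transcripts, overlap 3 snoRNA genes on the same strand, Snord14c, Snord14d and Snord14e. Whether these lie within the exons that were counted was not examined.

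**Figure D1:**
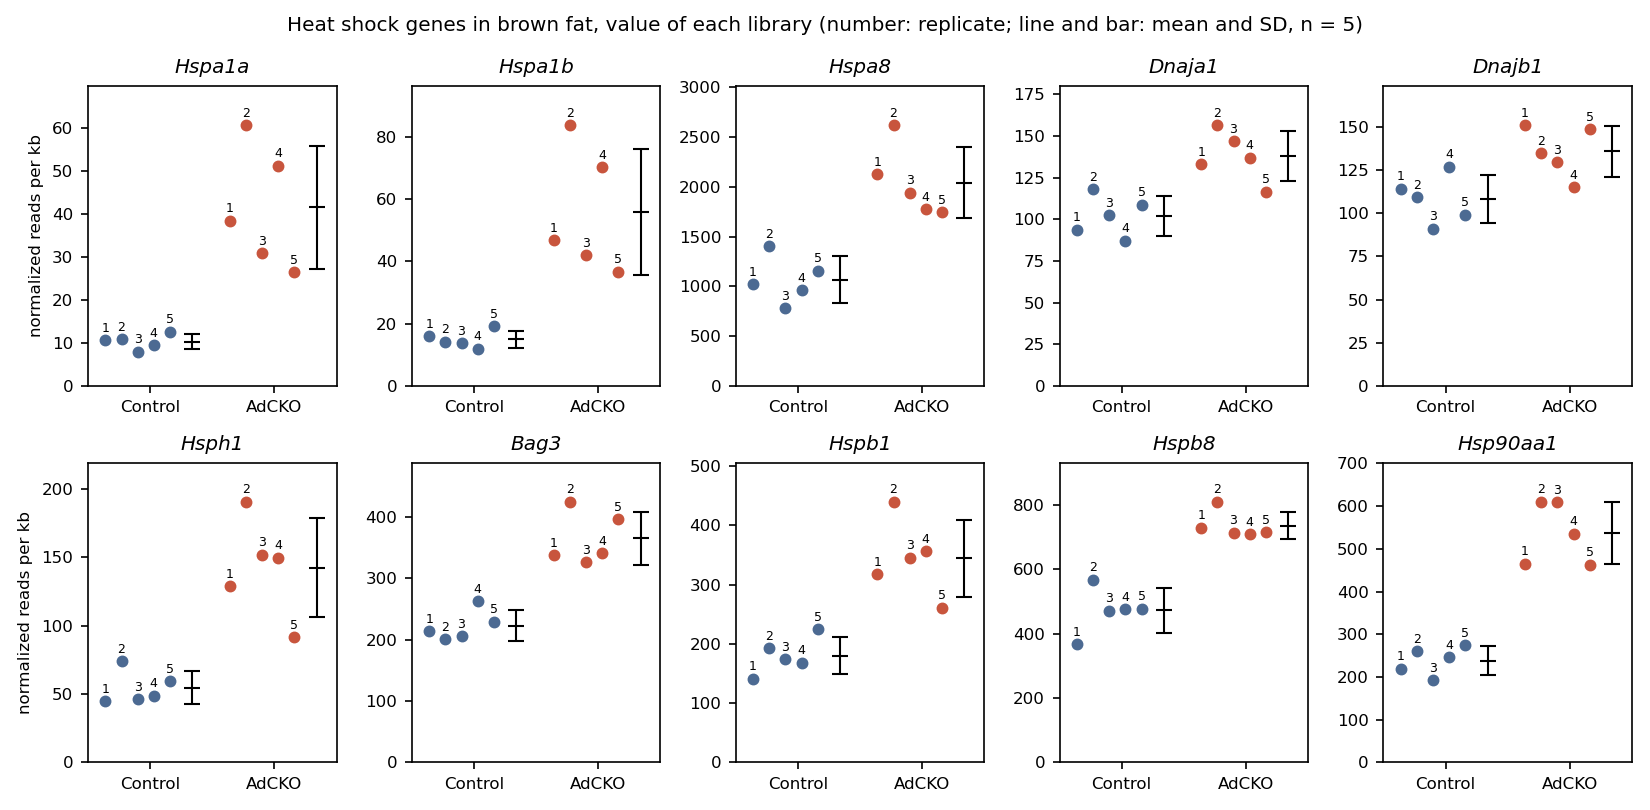
Normalized reads per kb (y axis, from 0) of each of the 10 heat shock genes in the 5 Control and 5 AdCKO libraries. Each point is 1 library marked with its replicate number, and the line with bars beside the points is the mean ± SD (n = 5). In 8 panels all AdCKO points lie above all Control points, and in the panels of Dnaja1 and Dnajb1 the groups overlap.

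Among the J-domain proteins that start the HSP70 cycle, Dnaja1 rose a little and Dnajb1 was not called. Dnaja1 (NM_008298, mm9 chr4:40669501-40684184, plus strand), a farnesylated partner of HSC70, had 93.6, 118, 102, 87.1 and 109 normalized reads per kb in Control and 133, 156, 147, 137 and 117 in AdCKO. AdCKO replicate 5 lay just below Control replicate 2, so the groups overlap. The Control mean of 102 ± 12.2 rose to 138 ± 15.0 (SD, n = 5), which is 0.43 on the log2 scale (SE 0.10, limma adjusted p = 0.00203, exact two-sided permutation test of the means p = 0.0159). Its annotated exons, taken over all transcripts, overlap Smu1 on the opposite strand. Smu1 had a log2 fold change of -0.15 and was not called (limma adjusted p = 0.0733).

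Dnajb1 (NM_018808, mm9 chr8:86132074-86135802, plus strand) encodes HSP40, the heat-inducible partner of HSP70 in refolding and in pulling apart aggregates. It had 114, 109, 91.0, 127 and 99.2 normalized reads per kb in Control and 151, 135, 130, 115 and 148 in AdCKO. Control replicate 4 lay above AdCKO replicate 4, and the other Control values lay below every AdCKO value. The means were 108 ± 13.8 and 136 ± 14.7 (SD, n = 5), and the log2 fold change of 0.33 (SE 0.10) missed the threshold (limma adjusted p = 0.0123, exact two-sided permutation test p = 0.0159). It was called without Control replicate 4, at 0.39, and without AdCKO replicate 4, also at 0.39 (limma adjusted p = 0.00503 and 0.00539).

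The 2 nucleotide exchange factors rose in every AdCKO library. Hsph1 (NM_013559, mm9 chr5:150419420-150438890, minus strand) encodes HSP105, an HSP110 that releases ADP from HSP70 and works with it on aggregates. It had 44.6, 74.3, 46.5, 48.8 and 59.6 normalized reads per kb in Control and 129, 191, 152, 150 and 91.5 in AdCKO. The gap between the groups lay between Control replicate 2 and AdCKO replicate 5. From a mean of 54.7 ± 12.4 Hsph1 rose to 143 ± 36.2 (SD, n = 5), or by 1.35 as log2 fold change (SE 0.19, adjusted p = 4.38e-05 by limma).

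Bag3 (NM_013863, mm9 chr7:135667097-135690493, plus strand) encodes the cochaperone that ties HSP70 to small heat shock proteins and passes clients to autophagy. It had 213, 200, 206, 263 and 229 normalized reads per kb in Control and 338, 425, 326, 341 and 396 in AdCKO. The AdCKO values lay in a range of their own, and here replicate 5 was the second highest of them, where for Hspa1a, Hspa1b, Hspa8, Hsph1, Dnaja1, Hspb1 and Hsp90aa1 it was the lowest. The Control mean of 222 ± 25.2 rose to 365 ± 42.9 (SD, n = 5), which is 0.71 on the log2 scale (SE 0.10, limma adjusted p = 3.70e-05).

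Both small heat shock proteins rose. Hspb1 (NM_013560, mm9 chr5:136363789-136365433, plus strand), which encodes HSP25, a holdase that also binds actin, had 141, 193, 174, 168 and 225 normalized reads per kb in Control and 317, 440, 345, 356 and 261 in AdCKO. From a mean of 180 ± 31.1 Hspb1 rose to 344 ± 65.1 (SD, n = 5), or by 0.93 as log2 fold change (SE 0.14, adjusted p = 0.000111 by limma), and the groups did not overlap.

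Hspb8 (NM_030704, mm9 chr5:116858504-116872873, minus strand), which encodes HSP22, the small heat shock protein bound by BAG3, had 367, 568, 471, 476 and 478 normalized reads per kb in Control and 729, 810, 714, 709 and 714 in AdCKO. Replicate 2 again stood highest in both groups, and the 4 other AdCKO libraries lay close together. The Control mean of 472 ± 71.0 rose to 735 ± 42.4 (SD, n = 5), which is 0.65 on the log2 scale (SE 0.10, limma adjusted p = 0.000109). The coefficient of variation between AdCKO mice was 5.77% for Hspb8, the smallest of the 10 genes, and 36.1% for Hspa1b, the largest.

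Hsp90aa1 (NM_010480, mm9 chr12:111929246-111934605, minus strand) encodes the inducible cytosolic HSP90 and had the smallest adjusted p of the 10 genes. It had 219, 261, 192, 246 and 274 normalized reads per kb in Control and 465, 610, 609, 535 and 463 in AdCKO. Every AdCKO library lay far above the highest Control library, Control replicate 5. From a mean of 238 ± 33.2 Hsp90aa1 rose to 536 ± 72.7 (SD, n = 5), or by 1.17 as log2 fold change (SE 0.11, adjusted p = 2.66e-06 by limma).

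Across the set, 8 of the 10 genes had every AdCKO value above every Control value, as had 24.5% of the 11244 genes tested, and for each of the 8 the exact two-sided permutation test gave p = 0.0079, the smallest that 5 mice against 5 allow. The plot of fold changes orders the genes from the HSP70 pair down to the J-domain proteins.

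**Figure D2:**
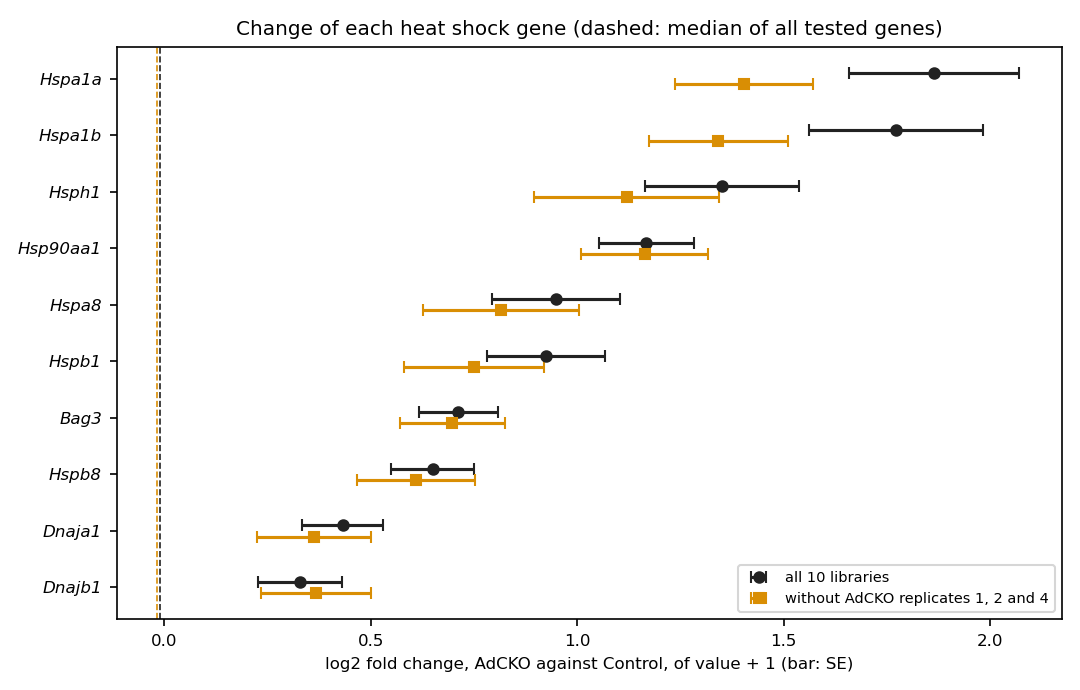
Log2 fold change of each of the 10 genes in AdCKO against Control, on log2(value + 1) (x axis), as estimate and SE, with all 10 libraries (circles) and without AdCKO replicates 1, 2 and 4 (squares). Dashed lines mark the median of all genes tested, close to 0 in both fits. The estimates run from 1.86 for Hspa1a to 0.33 for Dnajb1 with all libraries, and from 1.40 for Hspa1a to 0.36 for Dnaja1 without the 3.

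By level, Hspa8 was the highest of the 10 in both groups and Hspa1a the lowest. Hspa8 stood at percentile 96.9 of the 15075 genes by its Control mean and Hspa1a at percentile 30.5. In Control the order after Hspa8 was Hspb8, Hsp90aa1, Bag3, Hspb1, Dnajb1, Dnaja1, Hsph1, Hspa1b and Hspa1a, in normalized reads per kb. Neighbours in that order whose values overlapped between libraries were Hsp90aa1 and Bag3, Bag3 and Hspb1, Dnajb1 and Dnaja1, and Hspa1b and Hspa1a. In AdCKO, Hsp90aa1 (463 to 610) no longer overlapped Bag3 (326 to 425), and Hsph1 (91.5 to 191) overlapped both Dnaja1 and Dnajb1, which it lay below in every Control library. Hspa1a remained lowest, and its AdCKO mean stood at percentile 49.8 of the 15075 genes.

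Ratios within a library do not depend on how the libraries were scaled. The ratios to Hspa8 and to Hsp90ab1 set an inducible form against its constitutive partner. The ratio of Dnajb1 to Dnaja1 compares the J-domain genes. Hspa8 and Dnaja1 were themselves called higher. The ratio of Hspa1a plus Hspa1b to Hspa8 was 0.0261, 0.0178, 0.0279, 0.0223 and 0.0274 in Control and 0.0401, 0.0551, 0.0374, 0.0684 and 0.0361 in AdCKO. The groups did not overlap, and the mean log2 ratio was 0.94 higher in AdCKO (exact two-sided permutation test, p = 0.0079, adjusted over 3 ratios 0.0119). So the inducible pair rose by more than Hspa8, while in every library it stayed a small part of the Hspa8 level.

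The ratio of Hsp90aa1 to Hsp90ab1, the constitutive cytosolic HSP90, was 0.115, 0.115, 0.115, 0.113 and 0.121 in Control and 0.206, 0.222, 0.272, 0.209 and 0.200 in AdCKO. The Control libraries were almost level, and every AdCKO library lay well above them. The mean log2 ratio was 0.93 higher in AdCKO (exact two-sided permutation test, p = 0.0079, adjusted over 3 ratios 0.0119). Hsp90ab1 itself had a Control mean of 2059 ± 260 and an AdCKO mean of 2423 ± 221 (SD, n = 5), and its log2 fold change of 0.24 was not called (limma adjusted p = 0.0546). The ratio of Dnajb1 to Dnaja1 was 0.889 to 1.46 in Control, against 0.840 to 1.27 in AdCKO, a difference in the mean log2 ratio of -0.10 that lay within the spread (exact two-sided permutation test, p = 0.540, adjusted over 3 ratios 0.540).

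**Figure D3:**
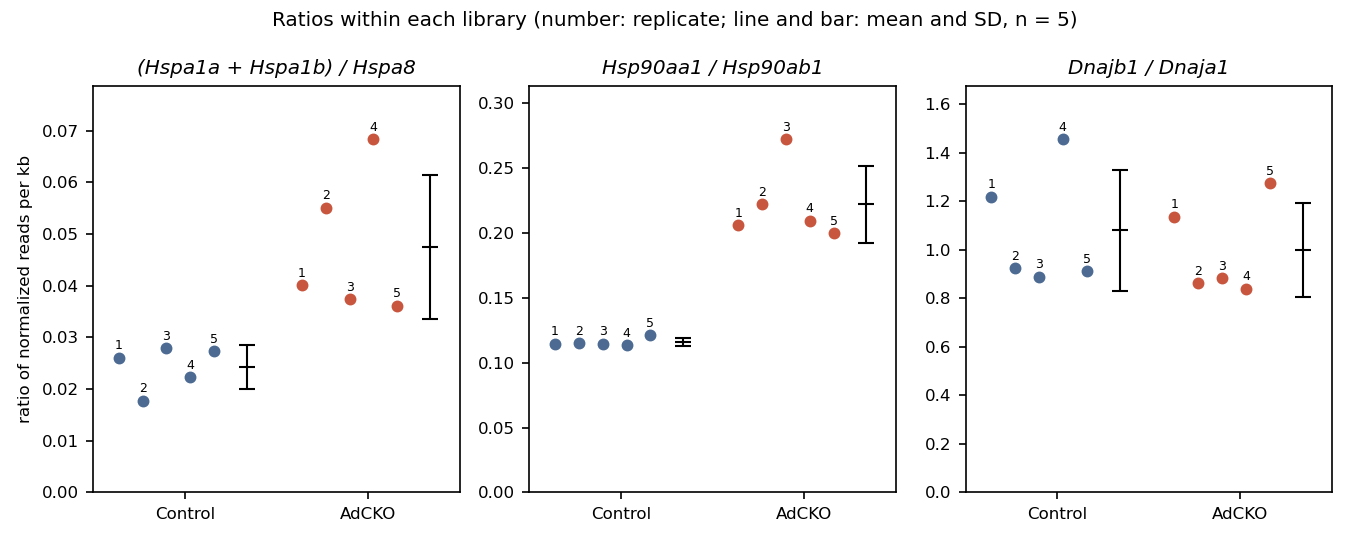
Ratio of normalized reads per kb within each library (y axes, from 0) for Hspa1a plus Hspa1b over Hspa8, Hsp90aa1 over Hsp90ab1, and Dnajb1 over Dnaja1, in Control and AdCKO. Each point is 1 library marked with its replicate number, and the line with bars is the mean ± SD (n = 5). The groups are apart in the first 2 panels (highest Control 0.0279 and 0.121, lowest AdCKO 0.0361 and 0.200) and overlap in the third.

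The AdCKO libraries differed among themselves in the same way for most of the 10 genes. AdCKO replicate 2 had the highest AdCKO value of 9 of them, the exception being Dnajb1, and replicate 5 had the lowest AdCKO value of 7. Skeletal muscle markers differed between the same libraries. Summed over 20 muscle genes, normalized reads per kb were 186 to 256 in the Control libraries and 9969, 36802, 295, 14527 and 307 in AdCKO replicates 1 to 5, so replicates 1, 2 and 4 stood apart. In replicates 3 and 5 the sum was little above Control, and single markers went both ways. The lowest AdCKO value of Ckm, muscle creatine kinase, was 9.50 against 12.0 to 14.5 in Control. Acta1 had 93.3 and 74.5 in replicates 3 and 5 against 39.4 to 56.1 in Control, and Mb 88.1 and 117 against 24.3 to 82.0. Without replicates 1, 2 and 4, limma called 1 of 9 muscle markers tested higher and 0 lower (2 and 2 at an unadjusted p under 0.05). Over all genes that fit called 2083 higher and 2191 lower. With all libraries the 20 markers were tested, and those left out here passed the filter on low values only through these 3 replicates. No value in the table is 0.

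Without AdCKO replicates 1, 2 and 4, a choice made after seeing the data, 8 of the 10 genes were called higher. Of all genes in that fit, 2083 were called higher and 2191 lower. The log2 fold change was then 1.40 for Hspa1a (limma adjusted p = 5.99e-05), 1.34 for Hspa1b, 1.16 for Hsp90aa1, 1.12 for Hsph1, 0.82 for Hspa8, 0.75 for Hspb1, 0.70 for Bag3 and 0.61 for Hspb8. Dnaja1 at 0.36 (limma adjusted p = 0.0461) and Dnajb1 at 0.37 (0.0382) were not called. Since the groups do not overlap for the other 8 genes, AdCKO replicates 3 and 5 lay above every Control library for each of them. For the HSP70 pair both the level and the ratio to Hspa8 were highest in replicates 2 and 4, and the part of muscle RNA in that was not tested.

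Markers of other cells moved between the groups as a whole. The sum of 11 macrophage markers was 532 to 1493 normalized reads per kb in Control, against 6857 to 9248 in AdCKO, and 11 of the 11 were called higher. The sum of 5 fibroblast markers ran from 813 to 1087 and from 2534 to 3590, with 4 of 5 called higher, and that of 6 endothelial markers from 1266 to 1606 and from 1313 to 1799, with 2 of 6 called higher. The sum of 11 brown adipocyte markers was 216673 to 254899 in Control, against 134095 to 160347 in AdCKO, with 8 of 11 called lower. Fabp4, named after its values were seen and not called, was its largest part, at 134139 to 163946 in Control and 101185 to 115806 in AdCKO. Among all genes tested, 25.6% were called higher and 28.0% lower. With every library scaled to the same total, 5 of the 11 were called lower and 2 higher, against 1094 and 7013 of all genes tested. After quantile normalization 4 were lower and 1 higher, against 3588 and 2496. Ucp1, the uncoupling protein that defines brown adipocytes, was present in every library, at 24203 normalized reads per kb or more in Control and 7895 or more in AdCKO. All cells express heat shock genes, and in bulk tissue fewer cells of a type and less RNA per cell cannot be told apart. The part of the cell mixture in the changes of the 10 genes was not tested.

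**Figure D4:**
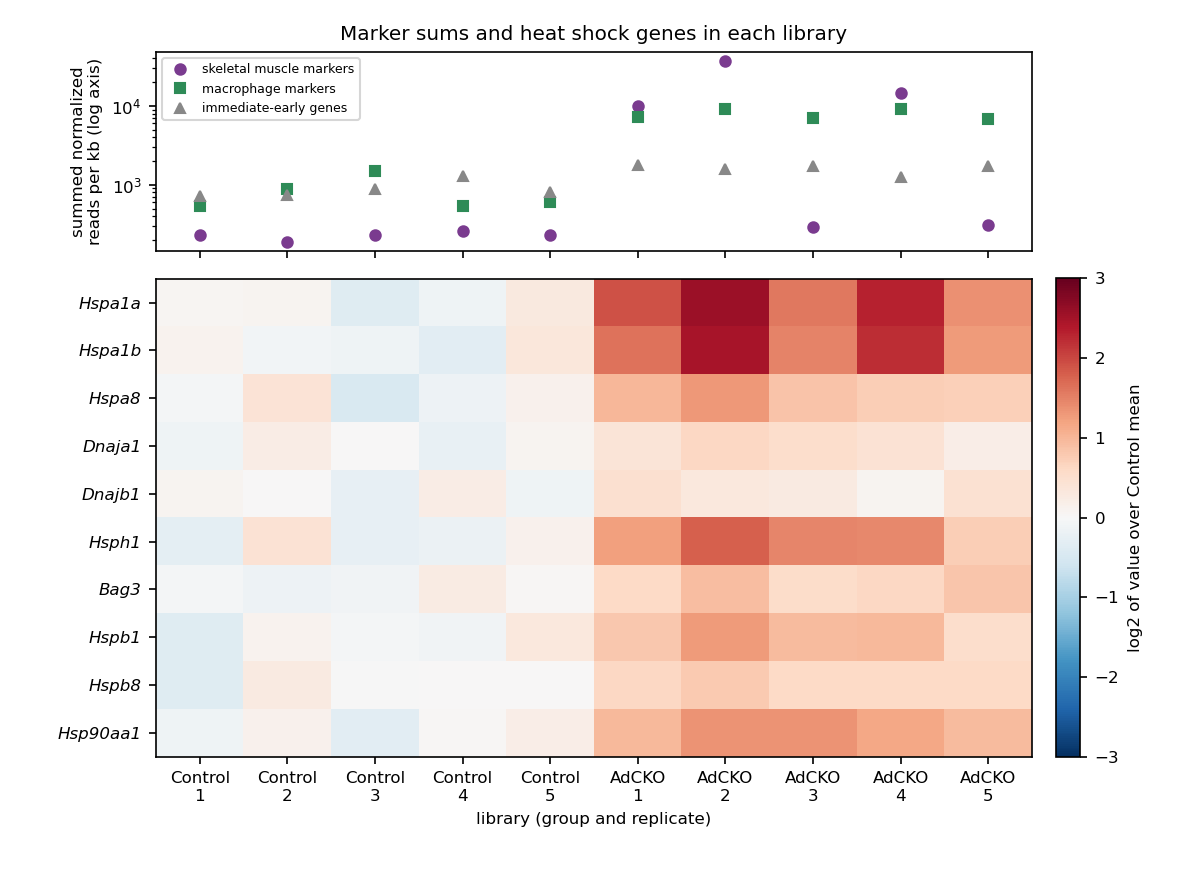
Upper panel: summed normalized reads per kb (log axis) of 20 skeletal muscle markers, 11 macrophage markers and 11 immediate-early genes in each of the 10 libraries. Lower panel: log2 of the value of each heat shock gene over its Control mean in the same libraries (colour scale from -3 to 3). Muscle markers are high in AdCKO replicates 1, 2 and 4, macrophage markers are high in the 5 AdCKO libraries, and the darkest cells are Hspa1a and Hspa1b in replicates 2 and 4.

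Immediate-early genes, which respond within minutes to handling as well as to other signals, were also higher in AdCKO. Of 10 tested, 6 were called higher, with Nr4a1 at a log2 fold change of 2.48, Fos at 1.94 and Jun at 1.55, and 1, Ier3, was called lower at -0.92. The shares over all genes tested were 25.6% higher and 28.0% lower. Summed over 11 immediate-early genes, normalized reads per kb were 721 to 1302 in Control and 1252 to 1780 in AdCKO. The highest Control sum was in replicate 4, which was the highest Control library for Dnajb1 and Bag3 and not for the 8 other heat shock genes. The part of the immediate-early genes in the change of the heat shock genes was not tested. Crls1 had 813 to 1291 normalized reads per kb in Control and only 193 to 249 in AdCKO (log2 fold change -2.27, limma adjusted p = 3.53e-08). Summed normalized reads ran from 7615403 to 8171138 per Control library and from 5419800 to 5843024 per AdCKO library.

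The rest of the cytosolic chaperone network, listed as 72 genes of which 69 were tested, had calls in both directions. In it 19 genes were called higher (27 at an unadjusted p under 0.05), 14 lower (19 at that p) and 36 not called. The median was 0.05 on the log2 scale. Over all genes tested, 25.6% were called higher and 28.0% lower, and the same shares stand beside the counts of the gene groups that follow. Scaling every library to the same total moves the median of all genes from -0.01 to 0.47. Limma then called 50 of the 69 higher and 0 lower (also 0 at an unadjusted p under 0.05). The counts over all genes tested at that scaling were 7013 and 1094. The 14 lower calls of the network were then lost. Of those genes, Ahsa2 at -0.18, Bag4 at -0.15, Bag1 at -0.07 and Hsf4 at -0.02 kept a negative sign, and the 10 others turned positive, Hsbp1, Hspa4l, Dnajc7, Dnajc21 and Bag6 among them. Without AdCKO replicates 1, 2 and 4, 7 of the network were called higher and 5 lower, against 2083 and 2191 of all genes in that fit. GAANNTTC was found in the promoters of 6 of the 69.

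Of the 4 heat shock factor genes tested, Hsf2 was called higher, with means of 29.0 ± 1.93 and then 52.0 ± 12.0 (SD, n = 5), or 0.79 as log2 fold change. Hsbp1, which encodes a protein that binds HSF1 trimers, was lower at -0.41, and Hsf4 was lower at -0.48. Hsf1, singled out after its values were seen because it encodes the factor named above, went from 102 ± 18.3 to 105 ± 9.20 (SD, n = 5), with 0.05 as log2 fold change (limma adjusted p = 0.725). HSF1 is controlled mainly as a protein, which RNA does not measure.

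Among 7 other HSP70 and HSP110 genes, Hspa12a at 0.71 and Hspa4 at 0.25 were higher and Hspa4l at -0.37 was lower. Among 14 other J-domain proteins, Dnajc2, which sits on ribosomes, was higher at 0.41, as were Dnaja2 at 0.44, Dnaja4 at 0.49 and Dnajb5 at 0.70, while Dnajc7 at -0.46 and Dnajc21 at -0.37 were lower. Of 8 other HSP70 cofactors, 0 were called higher (also 0 at an unadjusted p under 0.05) and 3, all of the BAG family like Bag3, were lower: Bag4 at -0.62, Bag1 at -0.55 and Bag6 at -0.27. Stub1, which encodes the ubiquitin ligase CHIP that works with BAG3, was not called at -0.07.

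In the group of Hsp90ab1 and the HSP90 cochaperones, 4 of 18 were higher and 6 lower. The higher ones were Fkbp5 at 0.85, Ppid at 0.71, Ptges3, which encodes p23, at 0.50, and Stip1, which encodes HOP, the bridge between HSP70 and HSP90, at 0.41. Ahsa2, related to the activator of the HSP90 ATPase, was lower at -0.65. In the chaperonin that folds actin and tubulin, 4 of 8 subunits were higher, Cct2 at 0.39, Cct3 at 0.38, Cct6a at 0.35 and Cct4 at 0.29, and 0 were lower (also 0 at an unadjusted p under 0.05). In prefoldin, which hands it substrates, Pfdn4 at 0.41 and Vbp1 at 0.32 were higher among 6, and 0 were lower (1 at an unadjusted p under 0.05).

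Of 4 other small heat shock protein genes tested, Cryab and Hspb6, both abundant in muscle, were called higher. Cryab had 145, 290, 216, 254 and 275 normalized reads per kb in Control and 690, 1097, 335, 969 and 490 in AdCKO, which is 1.51 higher on the log2 scale (limma adjusted p = 0.00076). For Hspb6 the mean went from 218 ± 17.3 up to 704 ± 395 (SD, n = 5), a log2 difference of 1.5. Both were highest in the libraries with high muscle markers, and without AdCKO replicates 1, 2 and 4 the log2 fold change was 0.82 for Cryab (limma adjusted p = 0.0157, not called) and 0.68 for Hspb6 (0.00063). Hspb7, a muscle small heat shock protein named after its values were seen, had 83.3, 163, 5.21, 58.4 and 5.85 normalized reads per kb in AdCKO against 3.54 to 5.89 in Control, so its high values were in those 3 libraries. For Hspb1 and Hspb8, AdCKO replicates 3 and 5 gave 345 and 261, and 714 and 714, all above Control. These replicates were also above every Control library for Cryab, at 335 and 490, and for Hspb6, at 315 and 389.

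**Figure D5:**
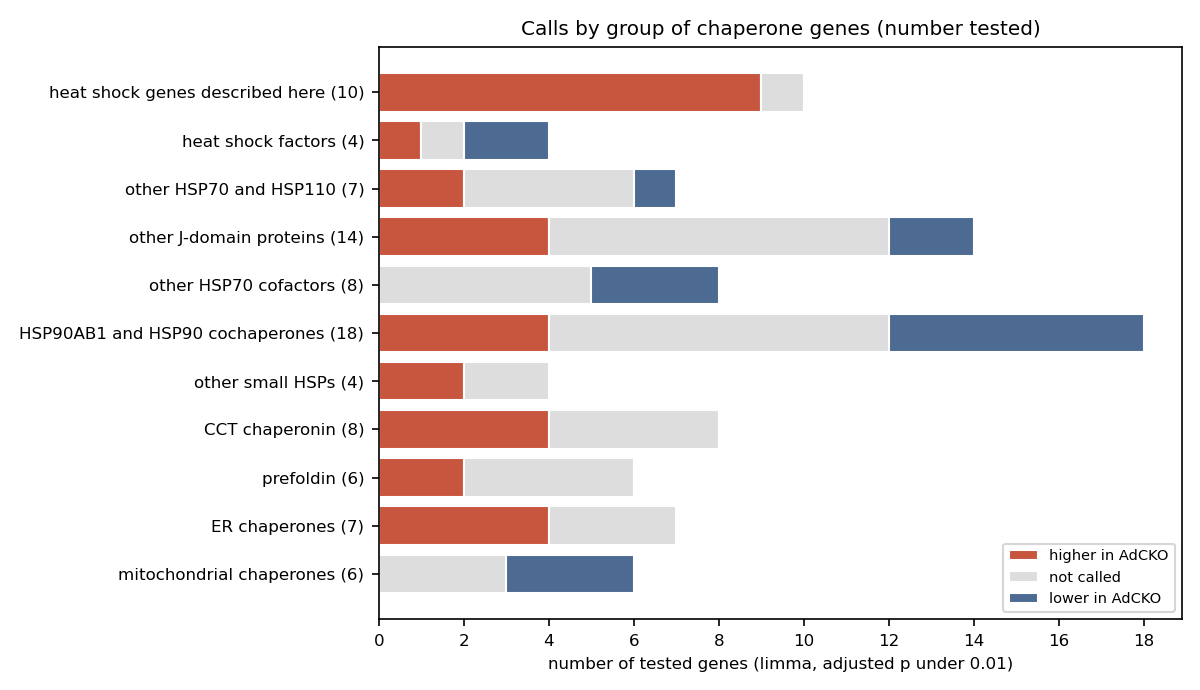
Number of tested genes (x axis) called higher, not called or called lower in AdCKO at a limma adjusted p under 0.01, for the 10 heat shock genes and for other groups of chaperone genes, with the number tested in parentheses. The 10 genes have 9 calls, all higher, and the HSP90 cochaperones and J-domain proteins have calls in both directions.

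Of 9 other genes that heat induces, 4 were called higher and 1 lower. Sqstm1, which encodes the autophagy receptor p62, rose to 2803 ± 58.8 from 1153 ± 63.8 (SD, n = 5), which is 1.28 on the log2 scale (limma adjusted p = 1.98e-08). Hmox1, heme oxygenase, which oxidative stress induces and macrophages express, rose at 2.24, and Zfand2a, a proteasome adaptor also known as AIRAP, at 0.59. Serpinh1, the collagen chaperone HSP47, was the fourth, named after its values were seen. Of the 4 partners of BAG3 in autophagy, Sqstm1, Flnc and Synpo2 were called higher. Flnc, a muscle filamin and client of BAG3, had a log2 fold change of 2.29 with 6.56 to 53.2 normalized reads per kb in AdCKO, and Synpo2, which encodes myopodin, had 1.38. Without AdCKO replicates 1, 2 and 4, Synpo2 had 0.42 and was not called (limma adjusted p = 0.0557), Flnc did not pass the filter, and Sqstm1 had 1.28.

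Chaperones of the other compartments differed from each other. In the endoplasmic reticulum, 4 of 7 were called higher, with Hspa5, which encodes BiP, at a log2 fold change of 0.93, Hsp90b1, which encodes GRP94, at 0.93 and Pdia4 at 0.85, and 0 were lower (also 0 at an unadjusted p under 0.05). In the mitochondrion, 0 of 6 were higher (1 at an unadjusted p under 0.05) and 3 were lower, Trap1, the mitochondrial HSP90, at -1.0, Grpel1, the exchange factor of mitochondrial HSP70, at -0.84 and Dnaja3 at -0.59. With every library scaled to the same total, limma called 3 of the 6 higher and 2 lower, and after quantile normalization 3 higher and 3 lower. Trap1, Grpel1 and Dnaja3 kept a negative sign at the same total (-0.52, -0.36 and -0.11).

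The genes whose profile over the 10 libraries lay nearest to that of Hspa1a were sought by the root mean square difference of centred log2 values over the 11244 genes tested. Hspa1b was the nearest at 0.12. The next 5 were Des, the muscle intermediate filament desmin, at 0.19, Qsox1 at 0.22, Adamts15 at 0.22, Sema3c at 0.22 and Fbn1, fibrillin-1, at 0.23. Des had 209 to 238 normalized reads per kb in Control and 793, 1357, 625, 775 and 488 in AdCKO, and thus its highest and lowest AdCKO values were in the same libraries as those of Hspa1a. Of the 8 remaining heat shock genes, Hsph1 was the nearest, at rank 135, and Dnajb1 the farthest, at rank 3154. Values were centred over all 10 libraries, so the distance includes the difference between the groups. The ranks therefore follow in part the fold changes given above.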

How the data were processed

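The data are RNA libraries of iBAT, 1 from each of 5 Control and 5 AdCKO mice, grouped by the sample labels. The authors isolated polyadenylated RNA, sequenced it, mapped the reads to mm9 with STAR, made tag directories with HOMER, used iRNA-seq to count reads on exons, and applied the normalization of DESeq2. What the authors deposited is a signal, normalized reads per kb, for 15075 genes with 1 transcript each, and not counts. None is 0, and how low values were treated is not given in the sources used here. The counted exon length in bases is deposited beside them. The deposited log2 fold changes and adjusted p-values, and 2 lists of called genes, hold the authors' own comparison and were not used. Sequencing depth is unknown, so no counting interval is given, and precision is judged from the spread between 5 mice.

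Values were used without further normalization. Genes with a mean of at least 10 in either group (11244) entered a limma fit (version 3.58.1, R 4.3.3) on log2(value + 1), using the trend option and two-sided tests, with p adjusted by Benjamini-Hochberg over these genes and a threshold of 0.01. The test was checked on simulated data. The count test of the study could not be run on these values. Single genes and ratios were compared with exact two-sided permutation tests. Promoters were read from the NCBIM37 (mm9) genome with pysam 0.24.0, under Python 3.11.15, which also drew the figures (matplotlib 3.10.9).

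The 10 genes and the gene lists were chosen with earlier results of these data known. Genes named beside the 10 are at most 4 called genes per group of the chaperone network by smallest p with those against the majority of their group, at most 3 per other list by smallest p, the 5 nearest to Hspa1a, and Crls1. The gene called lower among the other heat-inducible genes and 1 promoter sequence are not reported here. Others are said to be named after their values were seen, or are named as an overlapping gene, the partner in a ratio or the defining marker of a cell type. Alternatives tried were other pseudocounts, filters, scalings, trends and weights, a threshold of 0.05, each library left out, a block by replicate number, and Hspa1a and Hspa1b summed. Whether replicate numbers pair the samples was checked by correlating deviations from group means. Between same-numbered libraries these correlations ran from -0.268 to 0.098, and between others from -0.297 to 0.381. The check gave no sign that the numbers pair the mice, and with so few pairs it cannot exclude it.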

Additional observations from a re-analysis of the deposited data

Results flagged for a closer look

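Of 28 groups of 5 libraries that were checked for a library far from the others, 2 had one, where chance gives about 1 in 20. For the ratio of Hsp90aa1 to Hsp90ab1 in Control it was the highest library, replicate 5, at 0.121, against 0.113 to 0.115 in the 4 others. For Hspb8 in AdCKO it was the highest library, replicate 2, at 810 normalized reads per kb, against 709 to 729 in the 4 others. Replicate 2 was also the library with the highest sum of skeletal muscle markers, whose part in the value was not tested.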

How the results depend on the processing

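Over all settings tried with all libraries, or with 1 left out, between 9 and 10 of the 10 genes were called higher, and the 10 fold changes kept their sign. Leaving out 1 library at a time, the number of genes called higher among all tested was 2643 to 2887 and those called lower 2880 to 3066. Scaling to the same total in every library gave 7013 calls higher and 1094 lower, in place of 2879 and 3152, and moved the median of all genes from -0.01 to 0.47 (log2). Relative to that median the change of Hspa1a was 1.85, against 1.87 with the authors' scaling. Dnajb1 was then called (0.81), as it was after quantile normalization (0.36, limma adjusted p = 0.00732). The replicate block gave 2592 genes higher and 2838 lower and changed no call among the 10 genes. Their limma adjusted p over the alternatives that used all libraries reached at most 0.0289 for Dnajb1, 0.00342 for Dnaja1 and under 0.001 for the others.

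With each library left out, the difference in log2 ratio ran from 0.80 to 1.03 for Hspa1a plus Hspa1b to Hspa8, from 0.85 to 0.97 for Hsp90aa1 to Hsp90ab1 and from -0.20 to 0.01 for Dnajb1 to Dnaja1, where it changed sign without Control replicate 4 (0.0104). Without AdCKO replicates 1, 2 and 4 the 3 differences were 0.619, 1.01 and 0.00304 (exact permutation tests, p adjusted over the 3 ratios 0.143, 0.143 and 1.0, with 2 AdCKO libraries left), so the last changed sign there too. The cause was not tested.

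Limits: the depth of each library is unknown, and 5 mice per group give exact tests a smallest p of 0.0079. How the authors treated low values is not given in the sources used here. The scale used for the fold changes understates those of low genes such as Hspa1a. Hspa1a and Hspa1b share most of their exon sequence. Muscle, macrophage and fibroblast markers differ between the groups or libraries, and bulk RNA does not show which cells the heat shock transcripts came from.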
